A study of Homo sapiens with 6 samples.

Results

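The mevalonate arm is the first stretch of cholesterol synthesis, from acetyl-CoA to farnesyl diphosphate. It was followed here through 8 genes, the enzyme genes ACAT2, HMGCS1, MVK, PMVK, MVD, IDI1 and FDPS and the cobalamin gene MMAB. Each was represented by the brightest probe set annotated to that gene symbol alone, out of 18417 gene symbols measured in this way, and each of the 8 genes had 1 such probe set. The cells were neural stem cells, dividing precursors of neurons and glia, which had been derived from SA-01, a line of human embryonic stem cells, and were at passage 14. They received X5050 at 100 µM (3 arrays) or, as controls, DMSO at 0.1% (3 arrays), starting 5 h after plating and lasting 24 h. The series title names X5050 as an inhibitor of REST, a repressor of neuronal genes. A single cell line, dose and time were measured, and each of the 3 independent cultures was taken to have given 1 X5050 and 1 DMSO sample.

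In the mevalonate arm, acetyl-CoA units are built up into mevalonate, which is then phosphorylated, decarboxylated and condensed into isoprenoid diphosphates. Farnesyl diphosphate is a branch point, feeding squalene and cholesterol on one side and dolichol, ubiquinone and protein prenylation on the other. Many genes of this arm are known targets of SREBP2, the transcription factor encoded by SREBF2, which is released from the endoplasmic reticulum when sterols are scarce.

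All values are deposited log2 signals, and all changes are X5050 minus DMSO on that scale. The array medians lay between 5.68 and 5.75, and pairwise correlations among the 6 arrays ran from 0.984 to 0.993 over the table of 33297 probe sets. The 11 neural stem cell markers, among them SOX2 (11.03 with X5050 and 10.88 with DMSO) and PAX6 (10.67 with X5050 and 10.80 with DMSO), were above the array median on every array. So were 9 of the 10 measured neuron markers and 9 of the 11 mesenchymal markers. The same held for 5 of 7 astrocyte, 2 of 3 pluripotent and 1 of 7 oligodendrocyte markers measured. Such a level is common, since 12064 of the 19460 probe sets with 1 gene symbol had a mean signal above the median of the table's means. The arrays measured a mixed RNA pool, in which fewer cells of a type and less RNA per cell cannot be told apart.

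All 8 genes were lower with X5050 than with DMSO in each of the 3 cultures. The falls of HMGCS1, ACAT2, MMAB and FDPS, by 1.68-fold to 2.27-fold, passed the test, and the other 4 genes were 1.18-fold to 1.47-fold lower without passing it. The test was limma with the culture as a block, at an adjusted p under 0.05 over 19460 probe sets, of which 0.308% fell and 0.498% changed in either direction by this rule. Of all tested probe sets 17.5% were lower and 18% higher in all 3 cultures. The 3 X5050 values lay entirely below the 3 DMSO values for all 8 genes, as they did for 7.41% of all tested probe sets, while 7.51% had them entirely above. All 8 genes also had an unadjusted p under 0.05 on the lower side, beside 7.48% of all probe sets. The median change of the 8 genes was -0.65, beside 0.0092 over all tested probe sets. Without the culture block 0 of the 8 genes and 0 of 19460 probe sets passed in limma, while 7 of the 8 had an unadjusted p under 0.05, beside 4.88% of all probe sets on the lower side and 4.5% on the higher. The calls were also lost, for all 4 genes, without culture 3 in the paired fit (0 probe sets past, 6 of the 8 genes at an unadjusted p under 0.05). They were lost as well when limma was refitted, and p adjusted, over all 33297 probe sets of the table (0 past, 7 of the 8).

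**Figure D1:**
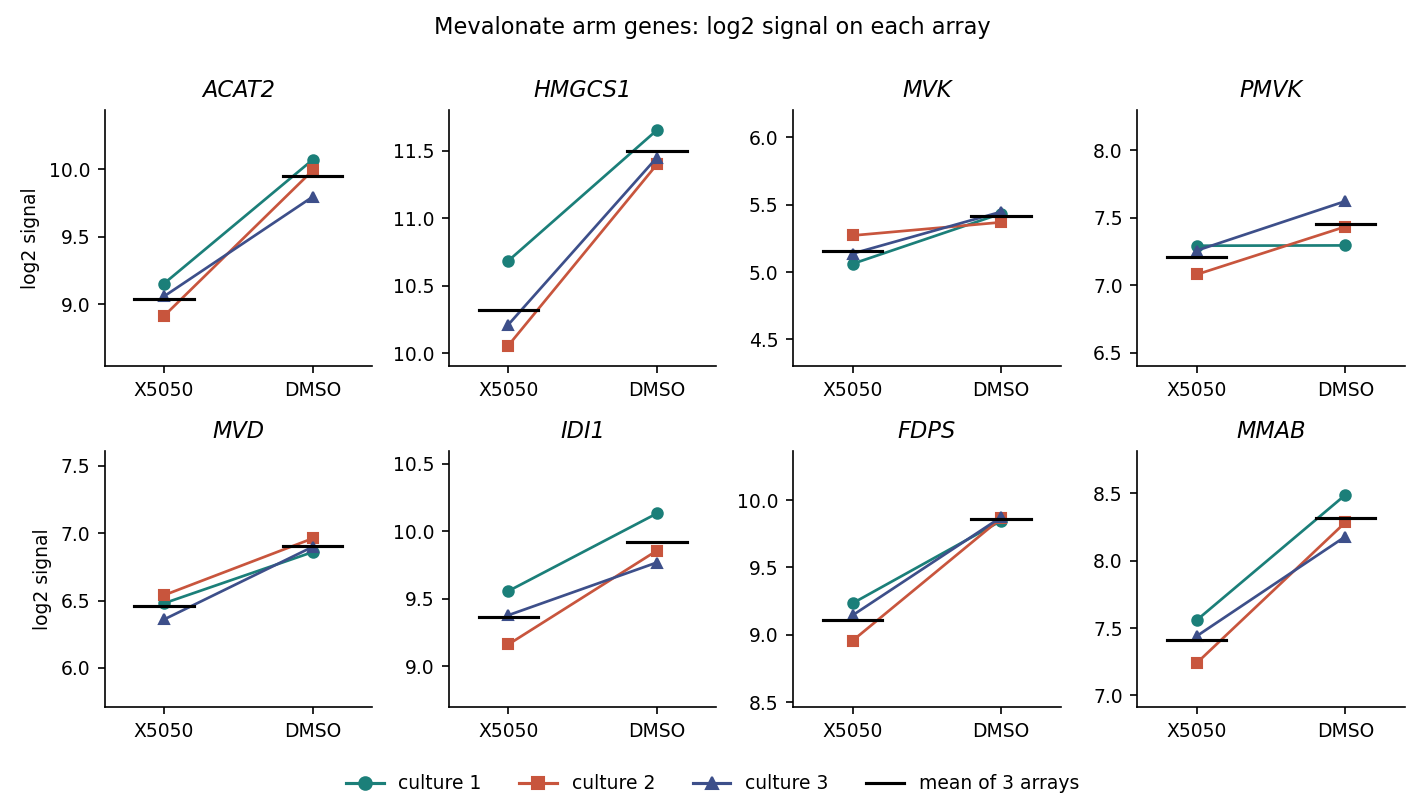
Log2 signal (vertical axis, the same span of 1.9 in every panel) of the 8 genes on each array, with X5050 on the left and DMSO on the right. Each line joins the 2 arrays of 1 culture and the black bars are means of 3 arrays. Every line runs lower on the X5050 side, by 1.18 on average for HMGCS1 and by only 0.0021 for PMVK in culture 1.

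The pathway opens with ACAT2, the cytosolic thiolase that joins 2 acetyl-CoA units into acetoacetyl-CoA. Its log2 signal was 9.15, 8.91 and 9.06 with X5050 in cultures 1, 2 and 3, against 10.07, 9.99 and 9.80 with DMSO. The groups were 0.64 apart at their closest. ACAT2 fell 1.88-fold (log2 change -0.91, SE 0.098, 95% interval -1.14 to -0.69, adjusted p = 0.0177 in the paired limma fit, 0.172 without the block, n = 3 cultures), and 23 of 19460 probe sets had a more negative change. The mitochondrial thiolase ACAT1, which does the same chemistry in ketone and isoleucine metabolism, had 6.23, 6.44 and 6.12 with X5050, against 5.92, 6.23 and 6.07 with DMSO. That is a change of 0.19 (SE 0.093, adjusted p = 0.402 in the paired limma fit), on the other side of 0 from ACAT2.

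HMGCS1 encodes the cytosolic synthase that adds a further acetyl group to form HMG-CoA. It stood at 10.69, 10.06 and 10.21 with X5050, against 11.65, 11.40 and 11.45 with DMSO. The highest X5050 array was 0.71 below the lowest DMSO array, the widest gap of the 8 genes. HMGCS1 fell 2.27-fold (log2 change -1.18, SE 0.10, 95% interval -1.42 to -0.95, adjusted p = 0.00824 in the paired limma fit, 0.210 without the block). Its change was the 8th most negative of all 19460 probe sets, and it was the most negative of the 8 genes in each culture.

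Between mevalonate and isopentenyl diphosphate act the kinases MVK and PMVK and the decarboxylase MVD, each of which uses ATP. MVK, which phosphorylates mevalonate, had a log2 signal of 5.06, 5.27 and 5.14 with X5050, against 5.43, 5.37 and 5.45 with DMSO. Its values were below the median of every array, the only gene of the 8 for which this held. The groups did not overlap but came within 0.098 of each other, and MVK was 1.20-fold lower (log2 change -0.26, SE 0.095, 95% interval -0.48 to -0.042, adjusted p = 0.255 in the paired limma fit).

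PMVK, which adds the following phosphate, had 7.29, 7.08 and 7.26 with X5050, against 7.30, 7.43 and 7.62 with DMSO. In culture 1 the treated and control arrays differed by only -0.0021, while cultures 2 and 3 had changes of -0.35 and -0.37. PMVK was 1.18-fold lower (log2 change -0.24, SE 0.10, 95% interval -0.48 to -0.0023, adjusted p = 0.339 in the paired limma fit). MVD, which removes the carboxyl group to give isopentenyl diphosphate, had 6.48, 6.54 and 6.36 with X5050, against 6.86, 6.96 and 6.90 with DMSO. MVD was the steadiest of the 8 genes between cultures, with changes of -0.38, -0.42 and -0.54 and a spread of 0.082 (SD, n = 3 cultures). It was 1.36-fold lower (log2 change -0.45, SE 0.089, adjusted p = 0.0770 in the paired limma fit), so it missed the threshold.

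IDI1, the isomerase that turns isopentenyl into dimethylallyl diphosphate, had 9.56, 9.16 and 9.38 with X5050, against 10.13, 9.86 and 9.77 with DMSO. The 2 groups did not overlap, with 0.21 between their closest arrays. IDI1 was 1.47-fold lower (log2 change -0.55, SE 0.096, 95% interval -0.77 to -0.33, adjusted p = 0.0580 in the paired limma fit). It passed when dim probe sets were left out (adjusted p = 0.0395), when limma fitted a trend of variance with signal (0.0179) and when probe sets were averaged per gene (0.0499). Its neighbour and paralogue IDI2 had 4.40, 4.10 and 4.14 with X5050, against 4.12, 4.74 and 4.18 with DMSO. The IDI2 change was -0.13 (SE 0.16, adjusted p = 0.790 in the paired limma fit), and it turned to 0.12 without culture 2.

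FDPS makes geranyl and then farnesyl diphosphate and is the enzyme that nitrogen-containing bisphosphonates inhibit. It had 9.23, 8.96 and 9.14 with X5050, against 9.85, 9.86 and 9.87 with DMSO. The 3 DMSO arrays were nearly identical, with an SD of 0.014 against 0.14 over the X5050 arrays. FDPS fell 1.68-fold (log2 change -0.75, SE 0.096, 95% interval -0.97 to -0.53, adjusted p = 0.0322 in the paired limma fit, 0.172 without the block). FDPS has processed pseudogene copies, and 2 probe sets annotated to FDPS together with another symbol were not used. How much signal from the pseudogene copies reaches the FDPS probe set is not known from the table. GGPS1, which extends farnesyl to geranylgeranyl diphosphate for prenylation, had a change of -0.12 (SE 0.089, adjusted p = 0.618 in the paired limma fit).

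MMAB is no enzyme of isoprenoid synthesis. It encodes the mitochondrial adenosyltransferase that makes the cobalamin cofactor of methylmalonyl-CoA mutase, and it lies head to head with MVK on chromosome 12. It had 7.56, 7.24 and 7.44 with X5050, against 8.49, 8.28 and 8.18 with DMSO, and the groups were 0.62 apart. MMAB fell 1.87-fold (log2 change -0.90, SE 0.096, 95% interval -1.12 to -0.68, adjusted p = 0.0177 in the paired limma fit, 0.172 without the block). Other genes of cobalamin transport and use, listed together with genes of propionyl-CoA metabolism, did not pass: 0 of 13 fell and 0 rose, with a median of 0.025. MMAA, which loads the cofactor onto the mutase, was 0.49 higher (SE 0.12, adjusted p = 0.119 in the paired limma fit). The methionine synthase reductase MTRR was at -0.37 (SE 0.093, adjusted p = 0.125), the propionyl-CoA carboxylase subunit PCCB at -0.32 (SE 0.097, adjusted p = 0.181) and the lysosomal cobalamin transporter ABCD4 at 0.26 (SE 0.087, adjusted p = 0.211).

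**Figure D2:**
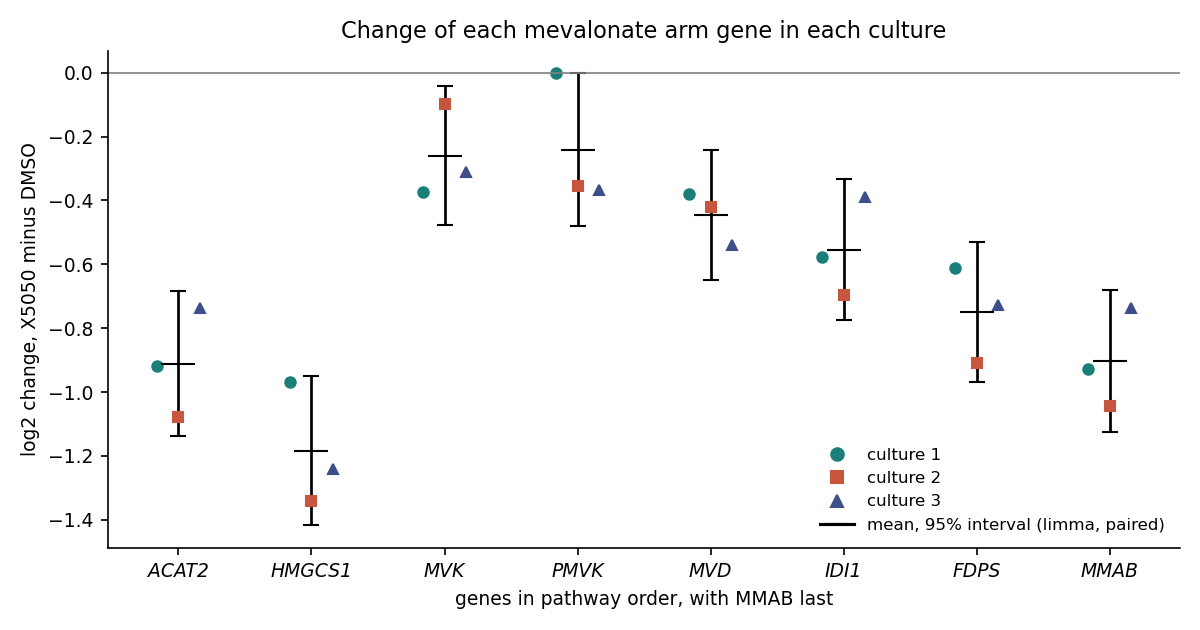
Log2 change (vertical axis, X5050 minus DMSO) of each gene in each of the 3 cultures, in pathway order with MMAB last. Black bars are means with 95% intervals of the paired limma fit (n = 3 cultures). HMGCS1 has the most negative mean (-1.18), PMVK (-0.24) and MVK (-0.26) the least negative, and MMAB (-0.90) stands beside ACAT2 (-0.91).

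The order of the 8 changes was close to the same in each culture. Ranked from the most negative change, HMGCS1 was at 1 and FDPS at 4 in all 3, and MVK and PMVK held ranks 7 and 8. ACAT2 and MMAB took ranks 2 and 3, and IDI1 and MVD ranks 5 and 6. The means of neighbours in this order differed by less than their SEs for ACAT2 and MMAB and for MVK and PMVK, and the intervals of IDI1 and MVD overlapped. The median change of the 8 genes was -0.59, -0.80 and -0.63 in cultures 1, 2 and 3. Culture 2 held the most negative change of 5 of the 8 genes, and its X5050 array was the lowest of the 3 for 6 of them. MVK had its smallest change (-0.098) in culture 2.

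MVK and MMAB start 290 bases apart on opposite strands, and their RefSeq promoter windows (250 bases before the start and 50 from it on, GRCh38.p14) share 211 bases. Within cultures MMAB changed by -0.56, -0.94 and -0.43 more than MVK, a mean difference of -0.64 ± 0.27 (SD, n = 3 cultures). All 3 differences had the same sign, but an exact permutation test over 3 cultures cannot give a p below 0.25, so the difference is a description. The MVK probe set was below the median of all 6 arrays and is removed when dim probe sets are left out. The windows of the 2 genes were searched, with those of the other genes, for CCAAT, the box bound by NF-Y, a factor known to work with SREBP at sterol genes. They were also searched for TCACNCCAC, a form of the sterol regulatory element, for its first stretch TCACNCC, and for CACGTG, an E-box. Both strands were read, and the motifs were chosen with the sequences in view. The stretch shared by MVK and MMAB held 5 CCAAT matches and 1 TCACNCC match. CCAAT occurred 2 or more times in 7 of the 10 windows of these genes, against 10.8% of 35116 promoter windows, and 3 or more times in 5 of them, against 3.26%. Since MVK and MMAB share their 5 matches, these counts are not of separate sites. PMVK had no match to any of the motifs. TCACNCC stood in 5 of the 10 windows (15.5% of all windows) while TCACNCCAC (1.13% of all windows) and CACGTG (7.26%) stood in 0 of them. In the IDI1 windows 2 CCAAT matches on opposite strands overlap, and the 2 HMGCS1 windows share 1 TCACNCC match. A match describes letters only.

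The windows below show promoters with CCAAT of genes that fell (HMGCS1, FDPS) or were lower (MVK, in its stretch shared with MMAB, and MVD), and that of PMVK, which has none. The HMGCS1 window is 1 of 2, and the other held 0 CCAAT, as did 1 of the 3 IDI1 windows. The changes of MVK with 5 matches (-0.26) and PMVK with 0 (-0.24) differed by less than their SEs. Capitals mark the CCAAT box, which reads in reverse complement where it lies on the opposite strand, and the stretch TCACNCC.
HMGCS1, chr5:43313363-43313662, minus strand: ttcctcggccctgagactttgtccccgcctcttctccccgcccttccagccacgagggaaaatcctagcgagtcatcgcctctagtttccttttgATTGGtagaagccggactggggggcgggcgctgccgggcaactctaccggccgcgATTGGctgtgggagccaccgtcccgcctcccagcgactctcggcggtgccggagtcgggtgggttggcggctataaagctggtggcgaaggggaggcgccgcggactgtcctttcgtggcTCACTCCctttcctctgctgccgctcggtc
FDPS, chr1:155308616-155308915, plus strand: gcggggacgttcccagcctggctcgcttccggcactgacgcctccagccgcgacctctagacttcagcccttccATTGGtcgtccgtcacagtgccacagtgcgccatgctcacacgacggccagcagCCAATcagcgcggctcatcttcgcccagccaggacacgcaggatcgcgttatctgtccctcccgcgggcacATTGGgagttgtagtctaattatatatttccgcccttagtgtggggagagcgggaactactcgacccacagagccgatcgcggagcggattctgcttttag
MVK, chr12:109573544-109573843, plus strand: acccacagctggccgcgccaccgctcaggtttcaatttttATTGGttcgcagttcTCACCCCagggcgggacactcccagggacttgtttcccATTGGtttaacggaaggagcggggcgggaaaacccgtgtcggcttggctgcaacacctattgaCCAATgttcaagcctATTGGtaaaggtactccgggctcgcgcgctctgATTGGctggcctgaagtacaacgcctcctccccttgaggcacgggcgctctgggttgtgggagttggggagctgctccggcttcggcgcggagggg
MVD, chr16:88663042-88663341, minus strand: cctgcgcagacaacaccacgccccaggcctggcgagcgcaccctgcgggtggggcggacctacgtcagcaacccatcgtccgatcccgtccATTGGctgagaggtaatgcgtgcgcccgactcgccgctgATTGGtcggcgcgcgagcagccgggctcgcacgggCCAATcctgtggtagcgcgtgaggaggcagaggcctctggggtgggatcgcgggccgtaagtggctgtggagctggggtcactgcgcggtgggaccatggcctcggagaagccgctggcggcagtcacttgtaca
PMVK, chr1:154936670-154936969, minus strand: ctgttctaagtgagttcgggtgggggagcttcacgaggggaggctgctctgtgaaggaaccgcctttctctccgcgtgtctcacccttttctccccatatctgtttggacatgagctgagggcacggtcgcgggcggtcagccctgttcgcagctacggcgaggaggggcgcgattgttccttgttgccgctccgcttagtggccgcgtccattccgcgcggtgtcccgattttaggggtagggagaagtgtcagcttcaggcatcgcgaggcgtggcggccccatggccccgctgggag

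**Figure D3:**
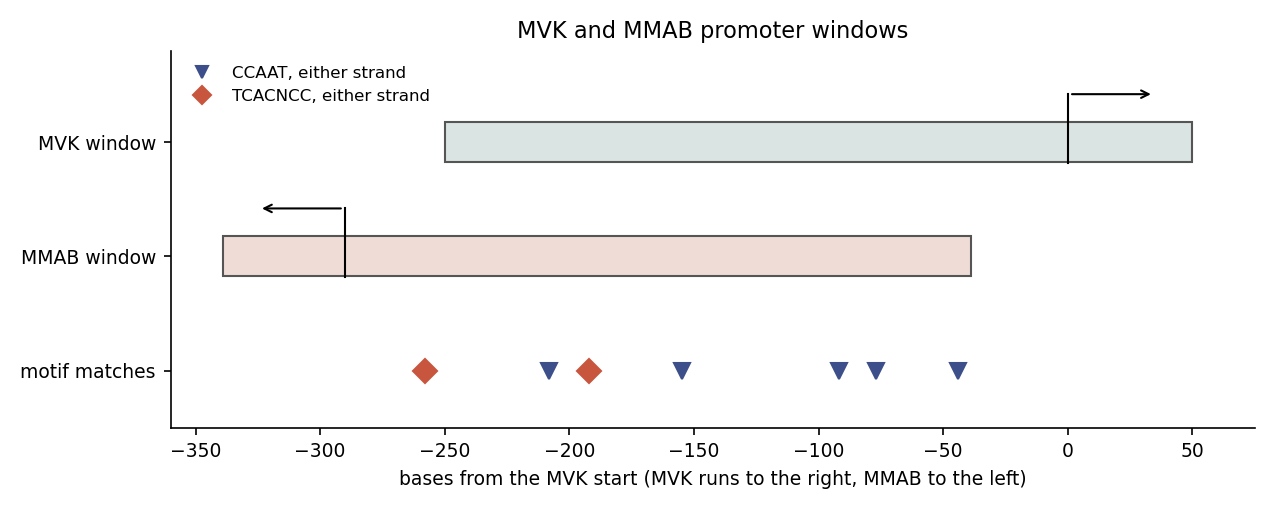
Map of the MVK and MMAB promoter windows by distance in bases from the MVK start (horizontal axis), with arrows at the 2 starts. Triangles are CCAAT and diamonds TCACNCC matches on either strand. The starts are 290 bases apart, and all 5 CCAAT matches lie between them in the 211 shared bases.

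The pathway lists were chosen with earlier results of these data known. Downstream of farnesyl diphosphate, 7 of the 11 measured genes from squalene to cholesterol fell and 0 rose, with a median of -0.68, beside the median of -0.65 for the mevalonate arm. The most negative change of all 19460 probe sets was that of DHCR7, the last reductase of the pathway, which fell 3.14-fold (log2 change -1.65, SE 0.099, adjusted p = 0.00236 in the paired limma fit). NSDHL (-1.21, SE 0.093) and MSMO1 (-1.04, SE 0.094), which remove methyl groups from the sterol ring, and the scaffold ERG28 (-0.74, SE 0.088) fell as well. Over all tested probe sets 0.308% fell and 0.19% rose by the same rule, while 9214 of the 19460 had a change below 0 and 10246 above. Among 12 measured genes of SREBP control and sterol uptake 3 fell and 0 rose, while 7 were above 0 and the median was 0.047. They were INSIG1 (-1.05, SE 0.10), which retains SREBP in the endoplasmic reticulum, the sterol carrier STARD4 (-0.75, SE 0.097) and SREBF2 (-0.58, SE 0.093, adjusted p = 0.0488 in the paired limma fit). SREBF2 had 7.02, 6.99 and 7.34 with X5050, against 7.62, 7.69 and 7.77 with DMSO, and it did not pass after quantile normalization (adjusted p = 0.0592 in limma) or without culture 2 (0.105). RNF145, a sterol-regulated ubiquitin ligase, was 0.70 higher (SE 0.12, adjusted p = 0.0555 in the paired limma fit). It passed as a rise in 5 of the 16 alternatives, namely without dim probe sets (adjusted p = 0.0384 in limma), with the variance trend (0.0225), with probe sets averaged (0.0478), without culture 1 (0.0464) and without culture 2 (0.0236). Over the 6 other pathway lists 6 genes fell and 1 rose (RNF145) without culture 2, against 10 and 0 with all cultures, and without culture 3 none passed in limma.

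Genes that supply acetyl-CoA, or use isoprenoids outside sterol synthesis, passed in neither direction by the same rule. Of 10 genes of acetyl-CoA supply 0 passed and the median was -0.15. Below 0 were 9 of them, beside 9214 of all 19460 tested probe sets. ACLY, the citrate lyase that makes cytosolic acetyl-CoA, was 1.38-fold lower (log2 change -0.47, SE 0.099, adjusted p = 0.0891 in the paired limma fit), and it passed with the variance trend (0.0411). The pyruvate dehydrogenase subunits PDHB (-0.29, SE 0.093) and DLAT (-0.23, SE 0.088) and the citrate carrier SLC25A1 (-0.19, SE 0.086) were closer to 0. Of 16 genes of isoprenoid use 0 passed, and their median was -0.039. The Rab escort protein CHML (-0.35, SE 0.10), the geranylgeranyl transferase subunits RABGGTB (0.19, SE 0.089) and PGGT1B (-0.22, SE 0.12) and the methyltransferase ICMT (-0.17, SE 0.086) lay on both sides of 0. The 7 measured members of a list of related isoprenoid enzymes and thiolases, which include ACAT1, IDI2 and GGPS1, had a median of 0.042 and 0 calls. HADHB, a thiolase of mitochondrial fatty acid oxidation, had the smallest p of that list (0.27, SE 0.091, adjusted p = 0.224 in the paired limma fit).

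**Figure D4:**
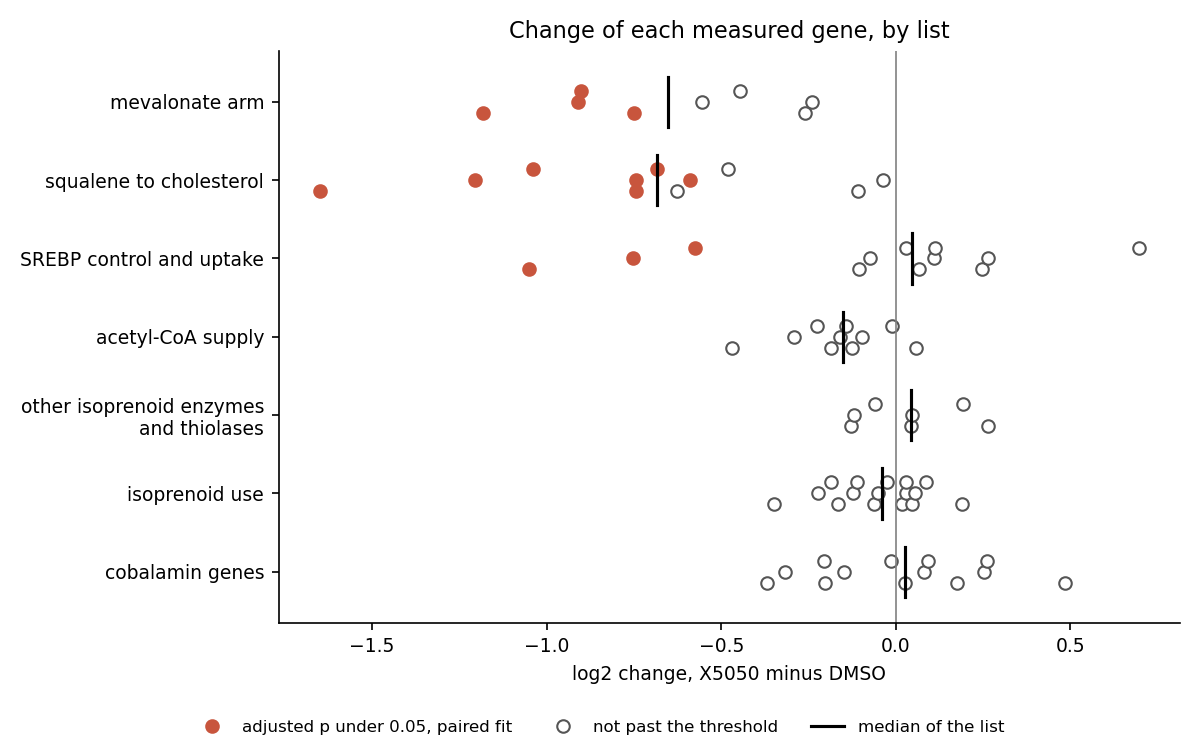
Log2 change (horizontal axis, X5050 minus DMSO) of each measured gene of 7 lists, 1 row per list, with points spread vertically only for legibility. Filled points passed an adjusted p under 0.05 in the paired limma fit and black bars are list medians. The filled points lie in the mevalonate, squalene to cholesterol and SREBP rows, all below 0.

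The mean profile of the 8 genes over the 6 arrays was compared with 1538 other genes whose change was at least 0.3 in size. The most alike were ERG28 (Pearson r = 0.996), the desaturase gene FADS2 (0.989), DNAJC15 (0.986), PDAP1 (0.985), ATP5MF (0.985) and LIX1 (0.985). Their changes were -0.74, -0.83, -0.99, -0.54, -0.40 and -1.38, in the same order, and that of ATP5MF did not pass (adjusted p = 0.107 in the paired limma fit). With 6 arrays in separate treatment groups such an r mostly follows the difference between treatments, so it is a description with no test. Against the mean of the other 7 genes, r was 0.988 for ACAT2, 0.985 for HMGCS1, 0.990 for FDPS and 0.989 for MMAB, and it was lowest for PMVK (0.699) and MVK (0.774).

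Markers of other cells moved in part with the same contrast. The counts below compare with all 19460 tested probe sets, of which 9214 were below 0 and 10246 above. Of 11 mesenchymal markers 1 fell, the matrix proteoglycan LUM (-1.09, adjusted p = 0.0386 in the paired limma fit), and 9 were below 0. Their mean log2 signal per array ranged from 6.74 to 7.94 with X5050, against 7.07 to 8.41 with DMSO. Their median change was -0.34, -0.16 and -0.065 in cultures 1, 2 and 3, while that of the 8 mevalonate arm genes was -0.59, -0.80 and -0.63. Of 7 astrocyte markers 1 fell, the gap junction gene GJA1 (-0.61, adjusted p = 0.0444 in the paired limma fit). In that list 5 were above 0, and the median was 0.047. Of 10 neuron markers 1 rose, SNAP25 (0.66, adjusted p = 0.0328 in the paired limma fit), while 5 were below 0 and the median was 0.0028. For LUM and GJA1 the 2 groups of arrays overlapped. The part of these markers in the mevalonate arm result was not tested. The neural stem cell list had 0 calls and a median of -0.13.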

How the data were processed

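Per the labels, 100 ng of total RNA from each of 3 X5050 and 3 DMSO samples went to an Affymetrix array. The table deposited by the authors holds log2 signals, one value for each probe set and array. RMA and Partek are named in the submitters' processing notes, with settings and build not given in the sources used here. Of 33297 probe sets, 19460 carried 1 gene symbol and were tested, 1754 carried several and 12083 were not in the annotation. The number of arrays limits the precision.

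Testing used limma 3.58.1 in R 4.3.3, two-sided, on X5050 minus DMSO with replicate number as a block (2 residual degrees of freedom, 4 without it) and Benjamini-Hochberg adjustment. The SEs, intervals and p-values from limma use variances moderated across probe sets (eBayes). They therefore do not measure the spread of the 3 cultures alone. The design text gives 3 cultures, and pairing was checked on deviations from group means. These correlated at 0.365, 0.297 and 0.255 for arrays sharing a number, and between -0.236 and -0.052 for the others. Deviations within a group cancel out, so positive values for shared numbers force negative ones, on average, for the others. A rank test of 3 against 3 arrays cannot go below 0.1. The fit was tested on simulated data.

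The 8 genes and the lists were chosen with earlier results of these data known. Named genes are the 8, the 4 of smallest p in each of 6 pathway lists (69 of 83 genes measured), ACAT1, SREBF2, ACLY and GGPS1, and the 6 most alike in profile. The markers SOX2, PAX6, LUM, GJA1 and SNAP25 were named after their values were seen. Alternatives were no block, centring, quantile normalization, leaving out dim probe sets, all probe sets, a variance trend, averaging probe sets, and leaving out cultures or arrays. Promoter windows are RefSeq's (GRCh38.p14) and cover 7 of the 8 genes. Plots used Python 3.11.15 and matplotlib 3.10.9.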

Additional observations from a re-analysis of the deposited data

How the results depend on the processing

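The change of each of the 8 genes stayed below 0 in all 16 alternatives (15 for MVK, which is absent once dim probe sets are left out). Their median change kept its sign, between -0.75 without dim probe sets and -0.58 without culture 2, and leaving out replicates moved it between -0.73 and -0.58. The -0.75 is a median of 7 genes, since MVK was absent there. The changes of those 7 were the same as with dim probe sets included. The calls were less stable. By limma without the replicate block 0 probe sets passed (unadjusted p under 0.05 in 875 on the higher and 949 on the lower side), with 0 of the 8 genes and 0 of the other pathway genes. The same counts of 0 came from refitting limma over all 33297 probe sets (1580 higher and 1907 lower unadjusted). The total of 97 past the threshold became 51 after quantile normalization, 182 without dim probe sets and 274 with a variance trend. It was 346 without culture 1, 81 without culture 2 and 0 without culture 3. With 1 culture or 1 array left out it ranged from 0 to 346, while 0 to 4 of the 8 genes and 0 to 11 of the other pathway genes fell, and RNF145 rose without culture 1 and without culture 2. No culture block was used when single arrays were left out. ACAT2, HMGCS1, FDPS and MMAB passed in the other 7 paired alternatives. Among the other named genes, IDI2 alone changed sign, to 0.12 without culture 2 and 0.065 without DMSO replicate 2, within -0.34 to 0.12 when 1 culture or array was left out. The cause of the lost calls was not tested.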
